A study of Mus musculus with 4 samples.

Results

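The 10 genes described here encode the pore subunits of the AMPA receptor (Gria1, Gria2, Gria3 and Gria4) and 6 of its auxiliary proteins (Cacng2, Cacng3, Cacng8, Cnih2, Cnih3 and Shisa9). They were chosen by gene name from the 28193 genes of the deposited count table, and all 10 were found and passed the filter on low counts. The libraries come from fosTRAP-seq, in which the ribosomes of CA1 neurons that expressed Fos during sleep deprivation (SD) carry an HA-tagged Rpl22 and are pulled down with the mRNAs bound to them. All mice were male C57BL/6J of 3 to 5 months. Per the methods they received 1 viral vector with a tamoxifen-dependent Cre driven by the Fos promoter and another with the Cre-dependent tagged Rpl22, while the sample labels give the genotype as cFos-Cre:Ribotag and the source as dorsal hippocampus. Every mouse, controls included, was sleep deprived for 5 h by gentle handling on day 0 with 4-hydroxytamoxifen given, and on day 7 the SD group lost sleep for another 5 h whereas the non-sleep-deprived (NSD) group was left undisturbed. Tissue was taken at ZT 5 and the CA1 of 5 mice went into each library, which gave n = 2 libraries for each group. The comparison asks whether the ribosome-bound mRNA of AMPA receptor genes in previously tagged neurons differs after a second bout of sleep loss, and it cannot speak to the first bout, which both groups had.

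AMPA receptors are the glutamate-gated channels that carry most fast excitatory transmission in the hippocampus. Each is a tetramer of GluA1 to GluA4, the products of Gria1 to Gria4, and the subunit mixture sets its conductance, calcium permeability and traffic. Transmembrane AMPA receptor regulatory proteins (TARPs, here Cacng2, Cacng3 and Cacng8), cornichons (Cnih2 and Cnih3) and the CKAMP protein encoded by Shisa9 bind the pore subunits and alter their export, anchoring and gating. In CA1 pyramidal neurons receptors of GluA1 with GluA2 prevail, and the gain or loss of synaptic AMPA receptors is a main expression mechanism of long-term potentiation and depression.

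Short coding stretches show a site that gene counts do not reveal. The codon of the Q/R site in the pore loop is shown in capitals, since RNA editing of that codon in Gria2 mRNA makes GluA2-containing channels nearly impermeable to calcium. All stretches are the sense strand read from the GRCm39 genome with GENCODE coding exons.
Gria1, chr11:57133899-57133943, plus strand: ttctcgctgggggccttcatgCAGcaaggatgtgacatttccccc
Gria2, chr3:80614197-80614241, minus strand: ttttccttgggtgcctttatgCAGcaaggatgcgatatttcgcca
Gria3, chrX:40699121-40699165, plus strand: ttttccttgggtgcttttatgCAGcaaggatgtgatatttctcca
Gria4, chr9:4464116-4464160, minus strand: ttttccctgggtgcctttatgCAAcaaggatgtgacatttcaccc
Gria2 and Gria3 shared 42 of the 45 bases, the most of any pair, and Gria1 shared 36 with each of them. The genome holds a CAG codon at this site in Gria1, Gria2 and Gria3 and a CAA codon in Gria4, and both codons encode glutamine, so that the subunits do not differ in the encoded residue here before editing. The deposited values are counts per gene and hold no base calls, so neither editing nor the flip and flop splice forms were analysed here.

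The last 10 codons before the stop codon are shown for 7 members whose C-terminal ends are known to bind PDZ domains, with the final 4 codons in capitals. These endings bind scaffold proteins whose genes are counted among the partners further on, such as Grip1 and Pick1 for GluA2 and GluA3, and Dlg4 (PSD-95) for the TARPs.
Gria1, chr11:57218440-57218469, plus strand: tcagggatgcccttgggaGCCACAGGATTG
Gria2, chr3:80596416-80596445, minus strand: aacgtatatggcatcgagAGTGTTAAAATT
Gria3, chrX:40761309-40761338, plus strand: aacgtgtatggaacagaaAGTGTTAAGATC
Cacng2, chr15:77879352-77879381, minus strand: aacacagccaaccgccggACCACGCCCGTA
Cacng3, chr7:122368037-122368066, plus strand: aatccggccaacagacgtACCACGCCTGTC
Cacng8, chr7:3464089-3464118, plus strand: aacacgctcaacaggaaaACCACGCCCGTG
Shisa9, chr16:12085635-12085664, plus strand: atcactaacagcaaaacaGAAGTGACTGTC
In translation Gria2 and Gria3 encode the same last 4 residues as each other, and so do Cacng2, Cacng3 and Cacng8, although the bases differ.

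The library totals lay between 153511705 and 195910235 estimated counts before scaling. Levels are given in CPM (counts per 1e+06 counts of a library, scaled with the TMM factors of edgeR), and s.d. is the spread between the 2 pools of a group. The groups were compared with the quasi-likelihood test of edgeR on the 22338 genes whose count passed 5 in each library. Genes are called here where the Benjamini-Hochberg adjusted p is below 0.05 and the fold change exceeds 1.2 either way. Each p measures the spread between pools of mice and not between single mice. The median log2 fold change over all genes tested was -0.016. All 8 CA1 pyramidal markers on a fixed list were counted, with Camk2a at a mean of 4273 CPM, but RNA of other cells was also present, with Gad1 at 311 to 332 CPM and Mbp at 880.3 to 1073 CPM across the libraries. In pooled tissue of this kind fewer cells of a type and less RNA per cell cannot be told apart.

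None of the 10 AMPA receptor genes was called higher or lower after SD. Over all genes tested 0.77% were called higher and 2.33% lower. At an unadjusted p under 0.05 there was 1 member of 10, Shisa9, against 19.1% of all genes. With the batch number of the labels as a block there were 3 of 10, Cacng3, Cnih3 and Shisa9, all above 0, against 26.5% of all genes. DESeq2 called 0 members, against 3% of all genes higher and 5.8% lower. After adjustment the block gave 0 calls among the members, where 2.99% of all genes were called higher and 8.47% lower. All members and all listed genes are protein-coding, and over the 15551 protein-coding genes the shares were 0.952% higher and 0.540% lower without the block, 3.77% and 3.29% with it, and 14.6% and 23.2% at an unadjusted p under 0.05 without and with it, around a median log2 fold change of 0.018. The median log2 fold change of the members was 0.030, and the single values ran from -0.085 for Gria2 to 0.20 for Cacng3. The SD libraries were both above the NSD libraries for 4 members (Cacng3, Cnih2, Cnih3 and Shisa9), against 22% of all genes, and below them for 0 members, against 27.5% of all genes. Over protein-coding genes these shares were 26.5% and 20.0%. All 4 are auxiliary genes, and each of the pore subunits overlapped between the groups.

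**Figure D1:**
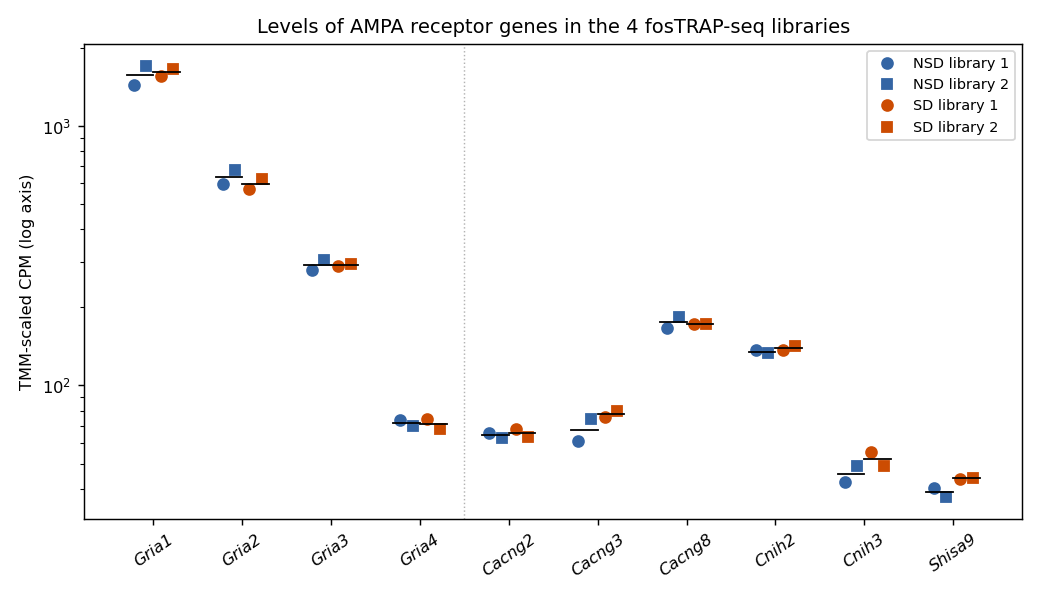
TMM-scaled CPM on a log axis for the 10 genes, pore subunits left of the dotted line. Each point is 1 library (blue NSD, orange SD, circles library 1, squares library 2) and each short line a group mean. Gria1 stands highest at 1439 to 1704 CPM, and the blue and orange points of Gria1, Gria2, Gria3 and Gria4 overlap.

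Gria1 (ENSMUSG00000020524, chromosome 11 from 56902213 to 57221070), which encodes the subunit whose phosphorylation and synaptic delivery are best known in CA1 plasticity, was the highest of the 10 by counts and per kilobase. It had 1439 and 1704 CPM in NSD libraries 1 and 2, and 1552 and 1656 CPM in SD libraries 1 and 2. Both SD values fell inside the span of the NSD values. Its rank by mean CPM, with no correction for length, was 45 of the 22338 genes tested. The mean of 1572 ± 188 CPM in NSD (s.d., n = 2) stood against 1604 ± 73.7 in SD (s.d., n = 2). The log2 fold change was 0.029 ± 0.12 (standard error) with edgeR's adjusted p = 0.935. The 95% interval was -0.24 to 0.30 on the log2 scale, a fold change of 0.845 to 1.23, and it depends on the model fitted.

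Gria2 (ENSMUSG00000033981, chromosome 3 from 80588757 to 80710142) encodes the subunit that keeps calcium out when its mRNA is edited. In NSD it had 595 and 674 CPM, and in SD 573 and 624 CPM. SD library 1 was the lowest of the 4 and NSD library 2 the highest, with the others between them in overlapping order. Within the batches the SD library stood at -3.82% (library 1) and -7.39% (library 2) against its NSD library. With the batch block the adjusted p by edgeR was 0.523. The log2 fold change was -0.085 (95% interval -0.31 to 0.14, edgeR adjusted p = 0.734), from 635 ± 55.8 CPM in NSD to 598 ± 36.7 in SD (s.d., n = 2 each).

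Gria3 (ENSMUSG00000001986, chromosome X from 40489731 to 40767478), whose product pairs mostly with GluA2, had 278 and 304 CPM in NSD and 289.6 and 294 CPM in SD. The SD libraries again lay inside the NSD range, with a log2 fold change of 0.0037 (95% interval -0.18 to 0.19, edgeR adjusted p = 0.989). Gria4 (ENSMUSG00000025892, chromosome 9 from 4417896 to 4796234), best known from interneurons and the immature hippocampus, was the lowest pore subunit by counts and per kilobase. It had 73.7 and 69.5 CPM in NSD and 74.5 and 67.8 CPM in SD, so that the SD libraries held both the highest and the lowest value. Its log2 fold change was -0.0084 (95% interval -0.18 to 0.16, edgeR adjusted p = 0.972). For Gria3 and Gria4 the whole interval stayed inside a fold change of 1.2 either way, whereas that of Gria1 passed it upward and that of Gria2 downward.

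Among the TARPs, Cacng8 (ENSMUSG00000053395, chromosome 7 from 3439199 to 3464164) encodes gamma-8, the main TARP of the hippocampus, and was the highest of the 3 by counts and per kilobase. It had 167 and 183 CPM in NSD and 172 CPM in both SD libraries, and its log2 fold change was -0.026 (95% interval -0.20 to 0.15, edgeR adjusted p = 0.906). Cacng2 (ENSMUSG00000019146, chromosome 15 from 77875948 to 78004228), the gene of stargazin, had 65.9 and 62.7 CPM in NSD and 68.0 and 63.3 CPM in SD, with a log2 fold change of 0.030 (95% interval -0.13 to 0.19, edgeR adjusted p = 0.878). The groups overlapped for both genes. In GENCODE, where Cacng2 ends at 78004441, it shares 536 exon bases with the lncRNA gene A730060N03Rik on the other strand. Fewer of these bases lie inside its counted span, and the count of A730060N03Rik is 4.99% of that of Cacng2.

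Cacng3 (ENSMUSG00000066189, chromosome 7 from 122269715 to 122368616), which encodes gamma-3, had the highest fold change of the 10. Its values were 60.9 and 74.3 CPM in NSD and 75.6 and 80.0 CPM in SD, so that the groups stood apart, but NSD library 2 and SD library 1 were nearly level. The mean moved from 67.6 ± 9.45 CPM to 77.8 ± 3.16 (s.d., n = 2 each), a log2 fold change of 0.20 ± 0.096 (standard error) with a 95% interval of -0.016 to 0.42 (edgeR adjusted p = 0.303). With the batch block the adjusted p was 0.0383, and the log2 fold change of 0.21 (a fold change of 1.16) was still too small for a call. Without NSD library 2 the log2 fold change was 0.35 and passed (edgeR adjusted p = 0.0440), and without NSD library 1 it was 0.096, so that the size of the difference rests on which NSD pool is used.

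The cornichons are export chaperones of the receptor that also slow its closing. Cnih2 (ENSMUSG00000024873, chromosome 19 from 5142896 to 5148549) had 137 and 134 CPM in NSD and 137 and 141 CPM in SD. Its SD libraries were above both NSD libraries by a narrow margin, with a log2 fold change of 0.044 (95% interval -0.11 to 0.20, edgeR adjusted p = 0.806). Cnih3 (ENSMUSG00000026514, chromosome 1 from 181180193 to 181288206) had 42.6 and 48.8 CPM in NSD and 55.2 and 49.1 CPM in SD. SD library 2 exceeded NSD library 2 by 0.530% while SD library 1 exceeded NSD library 1 by 29.6%. The log2 fold change of Cnih3 was 0.19 (95% interval -0.016 to 0.40, edgeR adjusted p = 0.304), and it ran from 0.10 without SD library 1 to 0.29 without NSD library 2 or without SD library 2.

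Shisa9 (ENSMUSG00000022494, chromosome 16 from 11801977 to 12088766) encodes CKAMP44, an auxiliary subunit known from dentate granule cells for its effect on desensitisation and short-term plasticity. It had the fewest counts of the 10, with 40.4 and 37.1 CPM in NSD and 43.6 and 44.1 CPM in SD. The SD pools were nearly equal and above both NSD pools. The mean moved from 38.8 ± 2.37 CPM to 43.9 ± 0.312 (s.d., n = 2 each), a log2 fold change of 0.18 (95% interval 0.014 to 0.34), and the unadjusted p of 0.0364 became 0.221 after edgeR's adjustment over all genes, or 0.0791 with the batch block. With NSD library 2 left out the log2 fold change was 0.12, and with NSD library 1 left out it was 0.27.

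**Figure D2:**
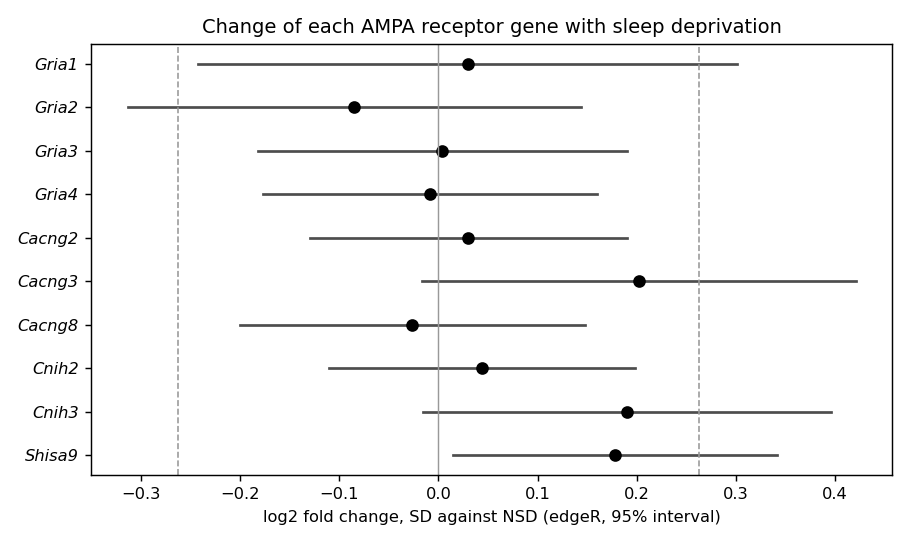
Log2 fold change of SD against NSD for each gene from edgeR (points) with its 95% interval (bars). The dashed lines mark a fold change of 1.2 in either direction. All points lie between the dashed lines, from -0.085 for Gria2 to 0.20 for Cacng3, and the interval of Shisa9 alone does not reach 0.

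Compared with each other on a per-length scale, the order of the levels depended in part on the length used. Per kilobase of merged exons, Gria1 was at 175 to 208 CPM per kb over the 4 libraries, Cacng8 at 56.3 to 61.8 and Cnih2 at 56.8 to 60.2, the last pair overlapping. Gria2 (20.9 to 24.6 CPM per kb), Gria3 (21.9 to 23.9) and Cacng3 (15.5 to 20.4) came next, with Gria2 and Gria3 not separable. Cacng2 (11.0 to 11.9), Shisa9 (6.96 to 8.27), Cnih3 (6.45 to 8.36) and Gria4 (3.76 to 4.14) closed the order, with Shisa9 and Cnih3 overlapping. The merged exons of Gria2 span 27.4 kb in the GENCODE annotation, retained-intron transcripts included, and those of Gria1 8.20 kb. They need not be the exons over which reads were counted. Per kilobase of coding sequence, which is 2.84 kb in Gria1 and 2.77 kb in Gria2, Gria2 moved up to rank 2 at 207 to 244 CPM per kb, behind Gria1 at 506 to 599. Gria1 was first and Cnih2 and Cacng8 within the first 4 by each of the lengths tried. Gria4 was last by merged exons and coding sequence.

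The share of each pore subunit within a library does not depend on how libraries are scaled to each other. By merged exons Gria1 made up 78.6% and 79.9% of the summed pore subunit level in NSD and 79.8% and 80.3% in SD. Gria2 made up 9.72% and 9.44% in NSD and 8.80% and 9.04% in SD, so that the SD values were the lower pair. By coding sequence the Gria2 share was 25.2% and 24.8% in NSD and 23.3% and 23.9% in SD, a difference of -1.41 percentage points, and that of Gria1 was 59.3% and 61.0% against 61.4% and 61.7%. Gria3 and Gria4 overlapped between the groups by either length, at 9.20% to 9.80% and 1.48% to 1.83% by merged exons. Among the 6 auxiliary genes Cacng8 made up 36.2% and 38.0% in NSD and 35.4% and 35.1% in SD by merged exons, the SD values again being the lower pair. Cacng3 made up 9.99% and 11.6% against 11.7% and 12.3%, and Shisa9 4.88% and 4.27% against 4.995% and 5.002%, with the SD values the higher pair for both, and Cacng2, Cnih2 and Cnih3 overlapped. By coding sequence Cacng3 and Shisa9 overlapped too.

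The ratio of Gria1 to Gria2 counts, which no length affects, was 2.42 and 2.53 in NSD and 2.71 and 2.65 in SD, with means of 2.47 ± 0.0785 and 2.68 ± 0.0410 (s.d., n = 2 each). It was higher in SD than in NSD in both batches. The ratio of Gria2 to Gria3 was 2.14 and 2.22 in NSD and 1.98 and 2.12 in SD, lower in both SD libraries, and that of Gria1 to Gria3 overlapped (5.18 and 5.60 against 5.36 and 5.63). Among the TARPs the ratio of Cacng3 to Cacng8 was 0.365 and 0.406 in NSD and 0.440 and 0.466 in SD, higher in both SD libraries. That of Cacng3 to Cacng2 overlapped (0.925 and 1.18 against 1.11 and 1.26), and so did that of Cnih3 to Cnih2 (0.312 and 0.365 against 0.403 and 0.347). These 6 pairs were picked after the values had been seen, and with 2 libraries against 2 a two-sided exact permutation test cannot give a p below 0.333, so the ratios stand as a description.

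**Figure D3:**
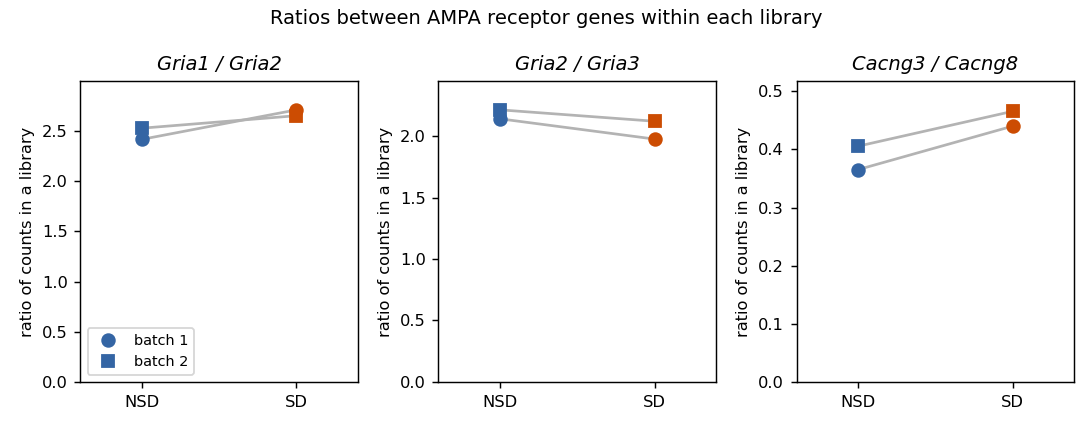
Ratio of the counts of 2 genes within each library, with the axes starting at 0. Grey lines join the NSD (blue) and SD (orange) library of the same batch. Gria1 to Gria2 is at 2.42 and 2.53 in NSD and at 2.71 and 2.65 in SD, Gria2 to Gria3 runs from 2.14 and 2.22 to 1.98 and 2.12, and Cacng3 to Cacng8 from 0.365 and 0.406 to 0.440 and 0.466.

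Several members differed more between the batches of the labels than between the conditions. Gria1, Gria2, Gria3 and Cacng8 were higher in both batch 2 libraries than in both batch 1 libraries, an order held by 16.8% of all genes, while Gria4 and Cacng2 were higher in both batch 1 libraries, an order held by 14.8%. The log2 difference of batch 2 against batch 1 was 0.17 for Gria1, 0.15 for Gria2, 0.077 for Gria3 and -0.11 for Gria4. None of the 10 members passed edgeR's test of the batch term, with adjusted p values from 0.193 (Cacng3) to 0.971 (Cnih2), and of all genes 1.03% passed with a fold change over 1.2. The summed level of the 8 CA1 pyramidal markers, most of it from Camk2a, was 6350 and 6111 CPM in the batch 1 libraries (NSD, SD) and 6674 and 6580 CPM in batch 2. The 9 interneuron markers summed to 928 and 911 CPM in batch 1 and 883 and 816 CPM in batch 2, and 7 of them were higher in both batch 1 libraries, with Sst past the test of the batch term (log2 difference -0.37, edgeR adjusted p = 0.0389). The 5 microglia markers, all of which were higher in both batch 1 libraries, summed to 71.9 and 71.5 CPM in batch 1 and 56.5 and 54.8 CPM in batch 2, with Csf1r (log2 difference -0.41, edgeR adjusted p = 0.0170) and C1qa (-0.41, 0.0297) past the test. In GENCODE Csf1r shares 1461 exon bases with Hmgxb3 on the other strand, whose count is 381% of its own. The counted span of Csf1r ends short of the GENCODE one, so fewer of these bases lie inside it. The part of these cell mixtures in the levels of the AMPA receptor genes was not tested.

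Across the conditions the CA1 pyramidal list overlapped in its summed level. Most of that sum was Camk2a, at 4285 and 4338 CPM in NSD and 4090 and 4379 CPM in SD. Yet 4 of its 8 genes, Wfs1, Fibcd1 and Neurod6 among them, were lower in both SD libraries and called lower with the batch block. Without the block edgeR called 0 of 8, with 4 at an unadjusted p under 0.05. DESeq2 without a block called the same 4 lower. Mpped1 went the other way, with both SD libraries above the NSD libraries (log2 fold change 0.14), Pou3f1 (0.082) and Slc17a7 (0.077) were also above 0, and none of these 3 was called by edgeR in either fit or by DESeq2. Over all genes 27.5% were lower in both SD libraries, 8.47% were called lower with the block and 19.1% were at an unadjusted p under 0.05, and over protein-coding genes these shares were 20.0%, 3.29% and 14.6%. In GENCODE Wfs1 shares 2660 exon bases with Ppp2r2c on the other strand, whose count is 180% of its own. As counted, Wfs1 starts at 37123448, past the GENCODE end of Ppp2r2c at 37112426, so its counted span does not reach those bases. The marker genes named here were picked after their values had been seen. None of the 9 interneuron markers was called by edgeR without the block or by DESeq2, and 1, Sst, was called lower with the block. The 6 astrocyte markers gave 0 calls in either fit, at a summed 577 to 649 CPM in NSD and 618 to 651 CPM in SD. The 7 markers of the oligodendrocyte lineage summed to 1445 to 1742 CPM in NSD and 1610 to 1697 CPM in SD, with 0 calls by edgeR without the block, 1 higher with it and 1 higher by DESeq2. The 6 endothelial markers summed to 37.0 and 51.3 CPM in NSD and 30.3 and 20.1 CPM in SD, with 0 calls by edgeR without the block, 5 lower with it and 4 lower by DESeq2 without a block. For the 5 microglia markers both fits gave 0 calls, and for the 6 tested markers of the dentate gyrus, CA2 and CA3 the counts were 0 without the block and 1 lower with it (Map3k15, which shares 716 exon bases with the far higher Pdha1 on the other strand), at a summed 53.2 to 63.1 CPM over the 4 libraries.

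The GENCODE annotation places 9 TEC or lncRNA loci (TEC being transcripts still to be experimentally shown) wholly inside the spans of the members, and 2 of them are in the count table. The others have no row there, which need not mean that they had no reads. Gm44749, on the opposite strand in an intron of Cacng3, had 0.694 and 0.356 CPM in NSD and 0.249 and 0.217 CPM in SD, and 2900069G24Rik, on the same strand in an intron of Cnih3, had 0.229 and 0.140 CPM in NSD and 0.0387 and 0.122 CPM in SD. Both were lower in both SD libraries while Cacng3 and Cnih3 themselves lay higher. That lower order was held by 27.5% of all genes and 20.0% of protein-coding genes, so it was more frequent among genes of other types. The 2 loci had only 257 and 90 counts in total over the 4 libraries. Neither was called (log2 fold changes of -1.17 and -1.19, edgeR adjusted p = 0.228 and 0.390), and their counts were 0.508% and 0.265% of those of their host genes.

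The partners of the receptor were counted from lists of genes with a known role. A list of 24 further complex members holds the remaining TARPs, CKAMP proteins, assembly factors, olfactomedins and neuronal pentraxins. None of them was called by edgeR, 7 of 24 were at an unadjusted p under 0.05 (19.1% of all genes), and the median log2 fold change was 0.069 (-0.016 over all genes). With the batch block 3 were called higher and 1 lower, where 2.99% and 8.47% of all genes were, and DESeq2 without a block called the same genes, where 3% and 5.8% were. Gsg1l (GSG1L, an auxiliary subunit that dampens the receptor) had 36.8 and 31.8 CPM in NSD and 40.9 and 44.7 CPM in SD, a log2 fold change of 0.32 (adjusted p by edgeR = 0.0934, and 0.0138 under the block). Sacm1l (SAC1, a phosphoinositide phosphatase of the endoplasmic reticulum found with newly made receptors) had 55.7 and 63.7 CPM in NSD and 72.4 and 76.8 CPM in SD, a log2 fold change of 0.32 (adjusted p by edgeR = 0.0717, and 0.00228 under the block). Vwc2l, a secreted brorin-like protein, had 30.3 and 28.3 CPM in NSD and 34.7 and 36.7 CPM in SD, with a log2 fold change of 0.29 (adjusted p by edgeR = 0.0816, and 0.0137 under the block). Sacm1l shares 1815 exon bases with Slc6a20b on the other strand, whose count is 1.73% of its own. Gsg1l passed when NSD library 1 (0.46, edgeR adjusted p = 0.0368) or SD library 1 (0.38, 0.0204) was left out, and Sacm1l when NSD library 2 (0.42, 0.0272) or SD library 1 (0.37, 0.0220) was. In all 3 genes the SD libraries stood above the NSD libraries.

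Nptx2 (NP2 or Narp, a secreted pentraxin that clusters AMPA receptors and is itself an activity-regulated gene) moved the other way. It had 25.6 and 33.1 CPM in NSD and 20.7 and 23.1 CPM in SD, with both SD libraries below both NSD libraries. The log2 fold change was -0.42 (95% interval -0.71 to -0.14, edgeR adjusted p = 0.101, 0.002465 with the block, 0.0310 with DESeq2). It was -0.23 when NSD library 2 was left out (edgeR adjusted p = 0.236) and -0.57 when NSD library 1 was (0.0239), and it also passed when SD library 2 was left out (-0.48, 0.00782). Its relatives Nptx1 (log2 fold change -0.0091) and Nptxr (0.084) were not called in either fit. The CKAMP genes Shisa6 (log2 fold change -0.079), Shisa7 (-0.20) and Shisa8 (-0.41) and the TARP genes Cacng4 (0.12), Cacng5 (0.080) and Cacng7 (0.19) were likewise not called with or without the block. Cacng7 had an adjusted p of 0.0401 by edgeR with the block and missed the call by its fold change of 1.14. Shisa8, at 1.15 to 1.80 CPM, shares 686 exon bases with the far more abundant Srebf2 on the other strand.

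Of 21 genes for AMPA receptor traffic, anchoring and editing, 1 was called higher and 0 lower (0.77% and 2.33% of all genes), with a median log2 fold change of 0.076. With the block 3 were called higher and 0 lower (2.99% and 8.47% of all genes), and DESeq2 without a block called the same 3. Arc, an immediate early gene whose protein speeds the endocytosis of AMPA receptors, was the 1 called. It went from 199 and 233 CPM in NSD to 386 and 426 CPM in SD, a log2 fold change of 0.91 ± 0.10 (standard error) and an adjusted p of 0.0328 by edgeR. Under filterByExpr, another filter on low counts, its adjusted p by edgeR was 0.0628. Dlg1 (SAP97, a scaffold that binds the GluA1 tail) had 119 and 115 CPM in NSD and 143 and 146 CPM in SD, a log2 fold change of 0.30 (adjusted p by edgeR = 0.0521, and 0.00410 under the block). Adarb1 (ADAR2, the enzyme that edits the Q/R codon of Gria2) had 243 and 229.7 CPM in NSD and 291 and 285 CPM in SD, a log2 fold change of 0.28 (adjusted p by edgeR = 0.0855, and 0.0105 under the block). Grip1 (log2 fold change -0.0081), Pick1 (0.034), Nsf (0.021) and Dlg4 (0.12) were not called in either fit. Of 3 related genes that were counted and are not held to be AMPA receptor subunits (Cacng6, Cnih1 and Cnih4), 0 were called by edgeR without the block and 1 with it and by DESeq2, Cnih4, with a log2 fold change of 0.27.

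**Figure D4:**
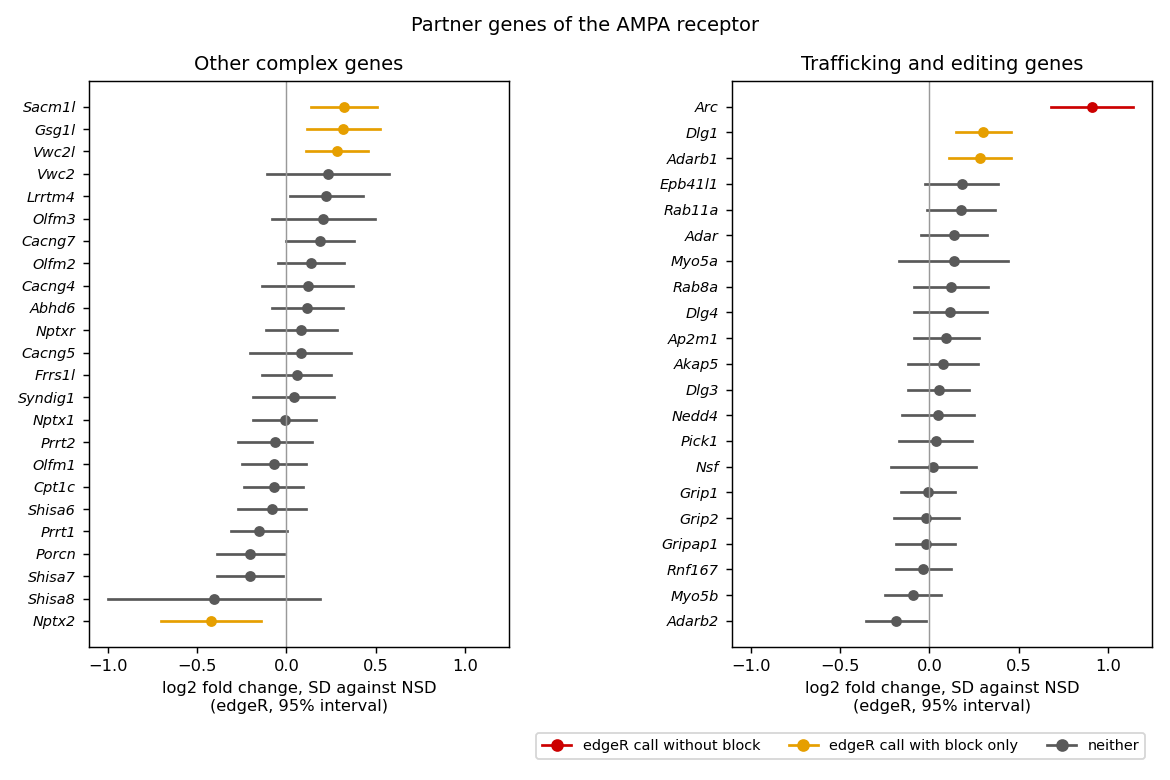
Log2 fold change of SD against NSD from edgeR (points) with 95% intervals (bars) for the 24 other complex genes (left) and the 21 traffic and editing genes (right), sorted by value. Red marks a call by edgeR without the batch block, orange a call by edgeR with the block and not without it, and grey neither. DESeq2 without a block called the red and orange genes and no grey one. Arc stands apart at 0.91, with Sacm1l, Gsg1l, Vwc2l, Dlg1 and Adarb1 at 0.28 to 0.32 and Nptx2 at -0.42 in orange.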

How the data were processed

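fosTRAP-seq RNA was sequenced from 2 NSD and 2 SD libraries. The authors removed low-quality 3' bases, mapped the reads to mm39 by STAR (2.7.8a) and estimated the count of each Ensembl release 110 gene in Partek Flow by expectation maximization. The deposited table holds these estimated counts without normalization, and 55.6% of its rows have a value that is not whole. Whether the counting used strand is not given in the sources used here, so overlapping genes on opposite strands carry an uncertainty.

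Estimated counts were first rounded. The test, by edgeR (4.0.16, under R 4.3.3), took the 22338 genes above 5 counts in all 4 libraries (TMM scaling, quasi-likelihood fit, condition as the only term, Benjamini-Hochberg adjustment over all genes). The 95% intervals come from the same fit. The study used DESeq2, which was run here (version 1.42.0) as an alternative. The labels give same-numbered libraries 1 batch number, which pairs them, and the differences between library 1 and library 2 in each group correlated at 0.274 across genes. The batch block, other filters and scalings, protein-coding genes only, and each library left out in turn were the other alternatives. Levels per kilobase used GENCODE exons on the same build, GRCm39, and 27962 of the 28193 gene IDs were found there. The build is shared, but the gene models differ from those used for counting. Among the members only Shisa9 has the same start and end in both. Gria2, for example, ends at 80710538 in GENCODE and at 80710142 as counted. The lengths behind the levels per kilobase and the shares therefore need not be those of the exons over which reads were counted. Start and end positions are those of the deposited table, whose stop lies 1 base past the end.

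The members and lists were chosen with earlier results of these data known. All 10 members are described, and from the partner lists every gene called with or without the block is named. Other partner genes and the marker genes in the text were picked after their values had been seen. Cacng1 was listed but not analysed here. The values of some marker genes are not reported here.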

Additional observations from a re-analysis of the deposited data

How the results depend on the processing

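No member was called lower under the alternatives, and the replicate block changed no member's call. Cacng3 was called without NSD library 2, so that the number of members called higher ran from 0 to 1 over the fits that left out a library. With the batch block and no fold threshold, a setting added after the data had been seen, it was 1. Small log2 fold changes changed sign without passing the test. Without NSD library 1 Gria1 was at -0.058, Gria3 at -0.031 and Gria4 at 0.064, and without NSD library 2 Gria2 was at 0.0083, Cacng2 at -0.0044 and Cacng8 at 0.044. Gria4 was at 0.076 without SD library 2 and Cacng2 at -0.021 without SD library 1. Leaving out 1 library gave ranges of -0.058 to 0.16 for Gria1, -0.14 to 0.0083 for Gria2, -0.031 to 0.071 for Gria3, -0.076 to 0.076 for Gria4, -0.021 to 0.099 for Cacng2, 0.096 to 0.35 for Cacng3, -0.063 to 0.044 for Cacng8, 0.029 to 0.090 for Cnih2, 0.10 to 0.29 for Cnih3 and 0.12 to 0.27 for Shisa9. Other scalings and filters put Gria3 at -0.017 (protein-coding genes), Gria4 at 0.014 (DESeq2, or its size factors in edgeR) and 0.019 (no count filter), and Cacng8 at 0.0021 (no count filter).

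Of the other complex genes, the replicate block and DESeq2 each called 3 higher and 1 lower, and the block without a fold threshold 4 and 1. Leaving out 1 library gave 0 to 2 higher and 0 to 1 lower, namely 1 and 1 when NSD library 1 was dropped, 1 and 0 for NSD library 2, 2 and 0 for SD library 1, and 0 and 1 for SD library 2. For traffic and editing genes the higher calls were 3 with the block (also without a fold threshold), 3 with DESeq2, 2 with DESeq2 size factors and 0 with filterByExpr. The difference in the Gria2 share was -0.995 percentage points by the longest coding transcript and -1.41 by coding sequence. A fit without 1 library assumes that the lone library of a group varies like the others. Over all genes tested, the fit reported called 172 higher and 520 lower. The block called 668 and 1891, DESeq2 671 and 1296, edgeR without a count filter 50 and 80, filterByExpr 1 and 0, and protein-coding genes alone 51 and 39. Dropping NSD library 1 gave 144 and 87, NSD library 2 gave 239 and 460, SD library 1 gave 291 and 1953, and SD library 2 gave 321 and 791. The cause of these differences was not tested.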
